A study of Mus musculus with 4 samples.

Results

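The early response of mouse skeletal muscle to a glucocorticoid was read from a pair of microarrays of gastrocnemius muscle, the large calf muscle. The first held RNA of adrenalectomized mice without an injection, and the second held RNA of adrenalectomized mice 3 h after an injection. All non-control probe sets with 1 gene symbol were taken, which were 10833 of the 12488 probe sets of the table and stood for 8251 genes. Of these genes 6168 had a signal at or above a floor of 100 on either array and could be compared.

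The series holds 4 Affymetrix MG-U74Av2 arrays with 1 array per group, each from the pooled muscles of 10 mice. The groups were intact mice, adrenalectomized mice without injection, and adrenalectomized mice given 0.1 mg of cortisol into the peritoneum and sampled 3 h or 24 h later. Adrenalectomy had taken place 1 week earlier for the mice without injection, and the labels give no interval for the injected mice. Removal of the adrenal glands takes away the main source of corticosterone, the glucocorticoid of mice, and also of aldosterone and adrenaline, so the 3 adrenalectomized groups shared that loss. The labels give no strain, age or sex of the mice, no time of day, and no group injected with vehicle. The labels also state that no replicate was made, so no test, p-value or standard error exists for any value below. The 2 arrays compared ran on fluidics modules 2 and 3, so that treatment, pool of mice, injection and module cannot be told apart. Values for a gene are given as scaled signals with intact first, then adrenalectomized, then 3 h and last 24 h, followed by the fold between the 3 h and the adrenalectomized array. The intact and 24 h arrays serve only to show where the 3 h value stood among all 4.

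Glucocorticoids enter cells and bind the glucocorticoid receptor, a transcription factor that chaperones hold in the cytoplasm until the hormone arrives. The loaded receptor moves to the nucleus, binds DNA as a dimer or through other factors, and switches target genes on or off within hours. In skeletal muscle the hormone is known for slowing protein synthesis, promoting protein breakdown and shifting fuel use from glucose towards fat, and prolonged excess wastes fast fibres.

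The 2 arrays were close in overall quality. Median signals were 197 on the adrenalectomized and 193 on the 3 h array, and 63.0% and 63.4% of the non-control probe sets were at or above the floor. All 15 markers of skeletal muscle fibres were above the floor on every array. Their summed signals were 327447, 333658, 326955 and 338339, so by this sum the labelled tissue was present at a similar level throughout. Some of these markers, such as Myh4 and Tnnt3, lay near the highest signal of an array, with values given below. Signals of other tissues were not level. The summed signals of 44 markers of epidermis and hair follicle were 6937, 6885, 24535 and 9979, highest on the 3 h array, and those of 25 hepatocyte markers were 9776, 7302, 5619.8 and 5017. The 16 slow fibre genes summed to 81511, 88248, 34935 and 33762, while the 19 fast fibre genes summed to 370943, 376397, 366561 and 380060.0. The part of these differences in the results below was not tested. In pooled whole muscle, fewer cells of a type and less RNA per cell cannot be told apart.

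**Figure D1:**
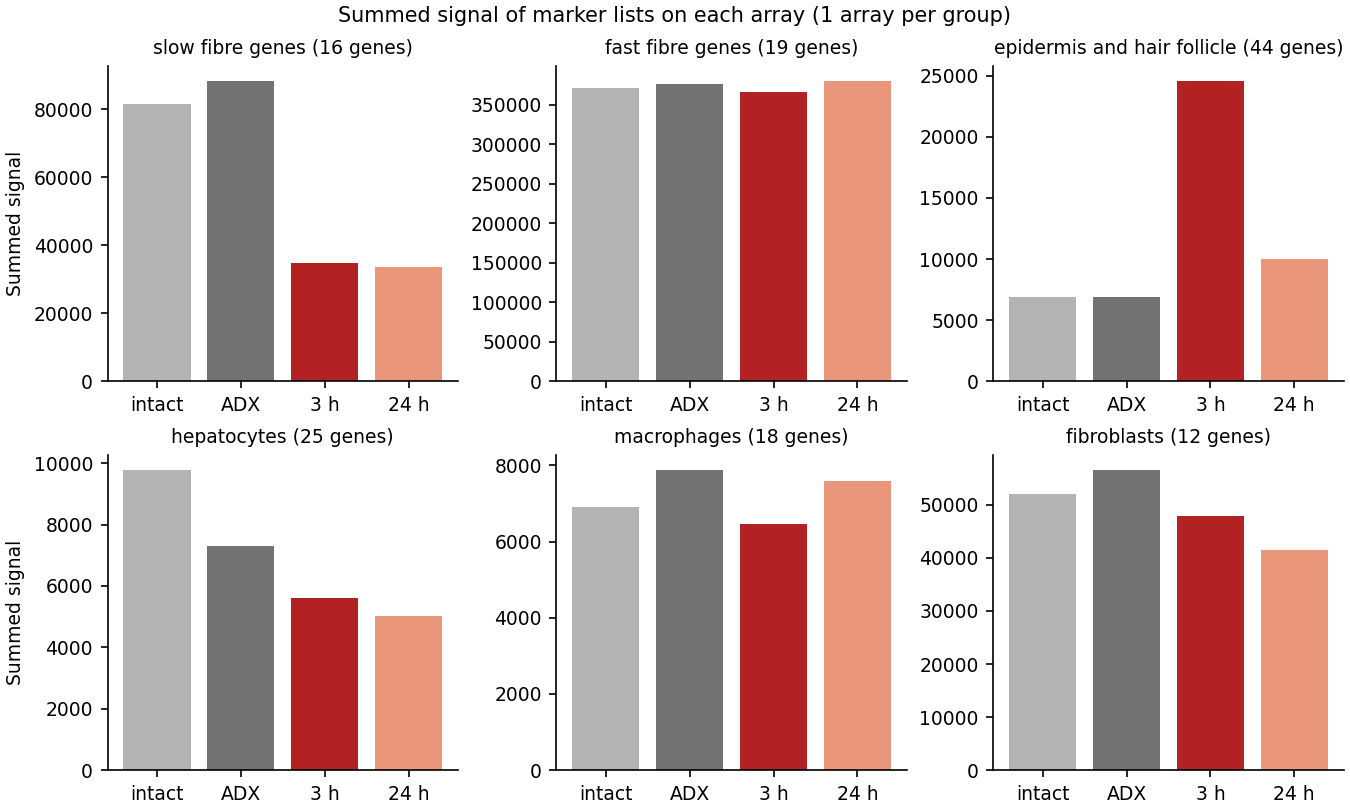
Summed signals of 6 marker or fibre type lists on the 4 arrays, 1 bar per array with no error bar because each group has 1 array; the number of genes on the array is in brackets and ADX stands for adrenalectomized without injection. The slow fibre sum was lower on both injected arrays than on the other two, the epidermis and hair follicle sum was highest at 3 h, and the fast fibre sum was nearly level.

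At 3 h after cortisol more genes stood higher than lower, and the largest folds were those of Dsp and Krt10, structural genes of skin, and of the regulatory genes Tiparp and Ddit4. Of the 6168 genes compared, 115 (1.86%) were higher by 2-fold or more at 3 h and 72 (1.17%) lower by as much, while the median log2 ratio of all genes was -0.02. Every 2-fold count of a list below is to be read against the 1.86% and the 1.17%. At a milder 1.5-fold the counts were 313 (5.07%) higher and 293 (4.75%) lower. The dimmer signal was below the floor for 36 of the 115 and 14 of the 72, and for these the fold is a lower bound against the floor of 100. Without the genes of the epidermis, hepatocyte, fibre type and lymphocyte lists 89 were higher and 60 lower of 6080 compared. Skin and hair genes outside these lists, such as Krt77 and Anxa8, remain among the 89. Scaling the arrays on ribosomal protein genes moved the median of all genes to -0.22 and turned the balance to 74 higher and 113 lower. Higher calls made up 61.5% of all calls as reported and 39.6% under that scaling. All 74 genes higher and 72 of the 113 lower under it belonged to the 115 and 72.

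A stricter view asked for a 3 h signal beyond all of the 3 other arrays. It was at least 2-fold above each of them for 65 of the 6416 genes that reached the floor on any array (1.01%), and at least 2-fold below each of them for 14 (0.218%). The 65 held 19 epidermis and hair follicle markers and 14 members of the glucocorticoid-induced list. All these ratios share the single 3 h array, so a trait of that pool or dissection also passes this filter. Among the 72 genes lower than on the adrenalectomized array, 38 were also at least 2-fold lower than on the intact array, and among the 115 higher genes 83 were also at least 2-fold higher than intact.

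**Figure D2:**
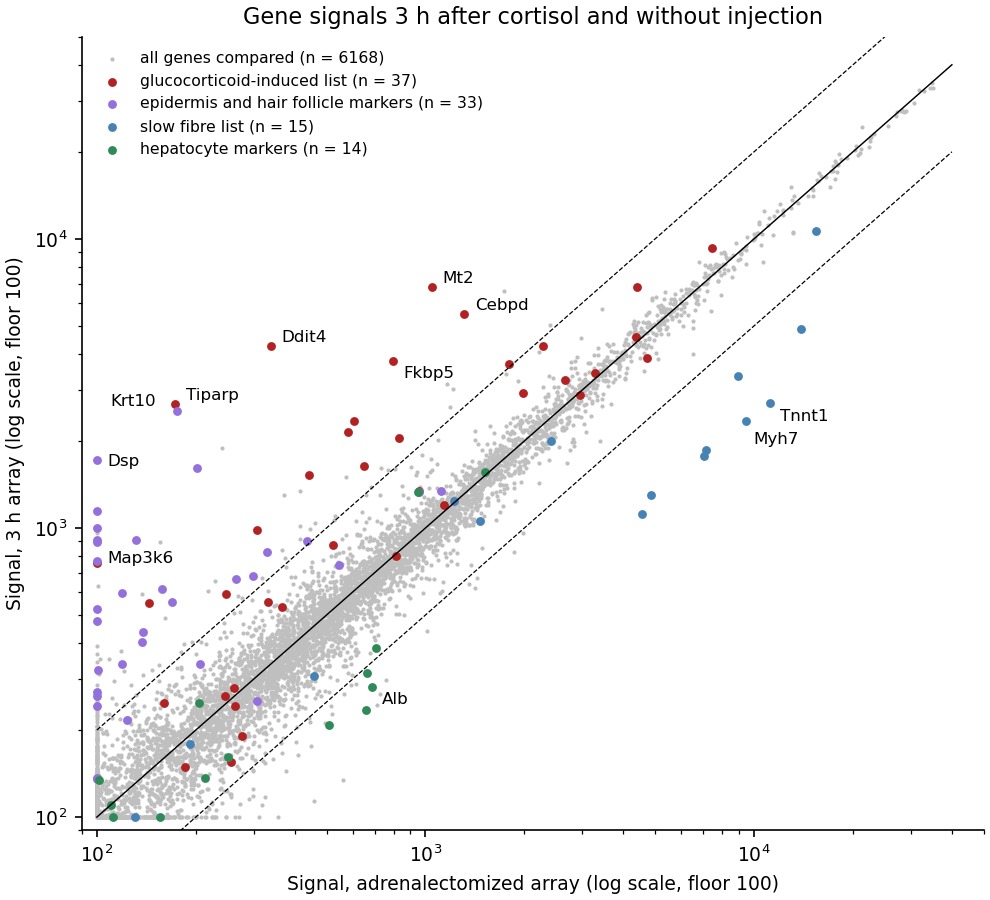
Signal of each compared gene on the adrenalectomized array (horizontal) and on the 3 h array (vertical), both on log scales with signals below 100 drawn at 100; the solid line marks equality and the dashed lines 2-fold. On the high side 15 glucocorticoid-induced genes and 25 epidermis markers lie beyond the upper line, and 8 slow fibre genes and 4 hepatocyte markers lie below the lower one.

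How far single probe sets can be trusted was read from genes with a second probe set. Across 928 genes whose 2 brightest sets were both above the floor on both arrays, the log2 ratios of the sets had a spread within the array of 0.28 (SD of their difference divided by the square root of 2). A difference of 2 spreads corresponds to 1.47-fold. The spread was 0.33 for 431 pairs with a dim set (mean signal under 300) and 0.16 for 132 pairs with both sets at 1000 or more. Variation from pool to pool is not part of it. Of genes past 2-fold, 53 had a second set, and for 28 of them it was above the floor on an array. Among the 28 that set had the same sign for 23, passed 1.5-fold the same way for 14 and passed 2-fold the same way for 8. These 8 were Sox4, Nfkbia, Spsb1, S100a3 and Tchh among the higher and Tnnt1, H2-M10.1 and Slc6a2 among the lower genes. Crct1, Lef1, Sema4a, Tbc1d10a and Tmem129 had a second set of opposite sign. Dsp, Krt10, Pag1, Bcl2l1, Myh7, Tpm3 and Timp1 were among the genes whose second set was below the floor on both arrays. Among genes past 2-fold named in the text, the higher genes Zfp36, Gadd45b, Frat2, Ell2, Gpcpd1, Spsb1, Krt27, Tchh, Crct1 and Igkv6-23 were read from suffixed probe sets, as were the lower genes Myh7, Tnnt1, Atp2a2, Cavin2, Dab2, Serpina1e, Tmem129, Tbc1d10a, Otulinl, Krt36 and H2-M10.1. Such sets may also detect other transcripts.

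**Figure D3:**
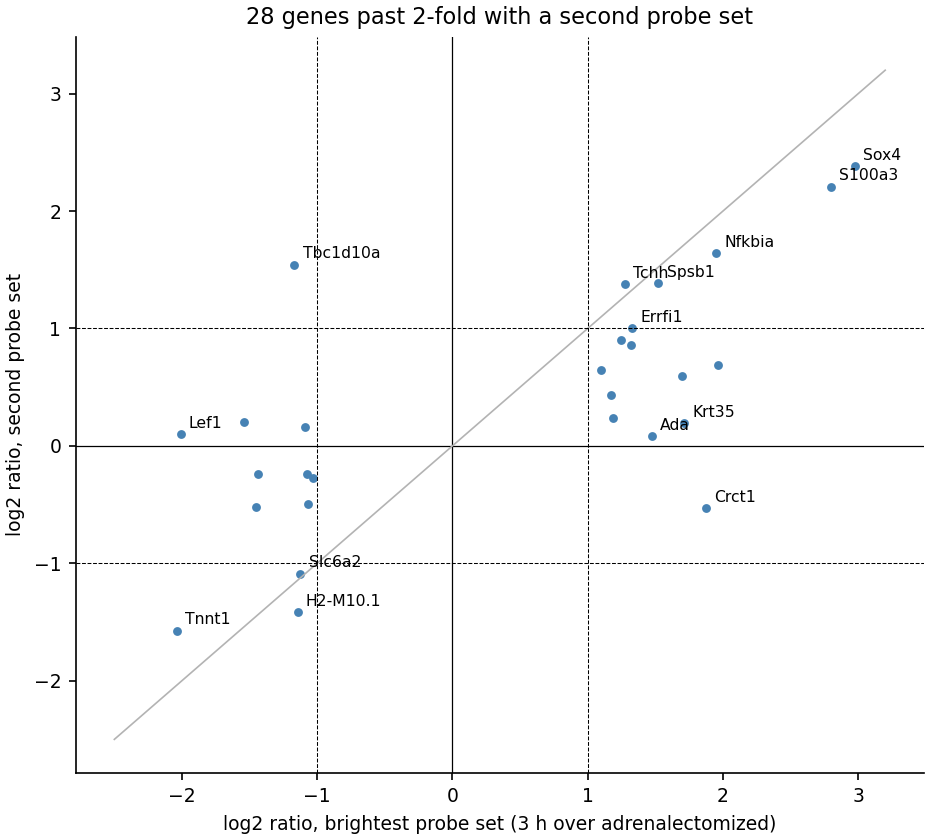
Log2 ratio of the brightest probe set (horizontal) against that of the second probe set (vertical) for the 28 genes past 2-fold whose second set reached the floor; each point is a gene, the grey line marks equality and dashed lines mark 2-fold. Sox4, S100a3, Nfkbia and Tnnt1 lie far out on both axes, while Tbc1d10a and Crct1 lie on opposite sides of 0.

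Among glucocorticoid-induced genes, a list drawn from general knowledge of the hormone's targets, 37 of 42 could be compared. At 3 h 15 of the 37 were at least 2-fold higher and none at least 2-fold lower, against 1.86% and 1.17% of all genes. The median log2 ratio of the list was 0.64, against -0.02 for all genes, and 14 of the 15 were also at least 2-fold above all 3 other arrays. At 1.5-fold, 20 were higher and 1 lower, against 5.07% and 4.75% of all genes. Gadd45b is the member of the 15 that was not beyond all other arrays. The list was compiled with earlier results of these arrays known, so its direction is no independent evidence.

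**Figure D4:**
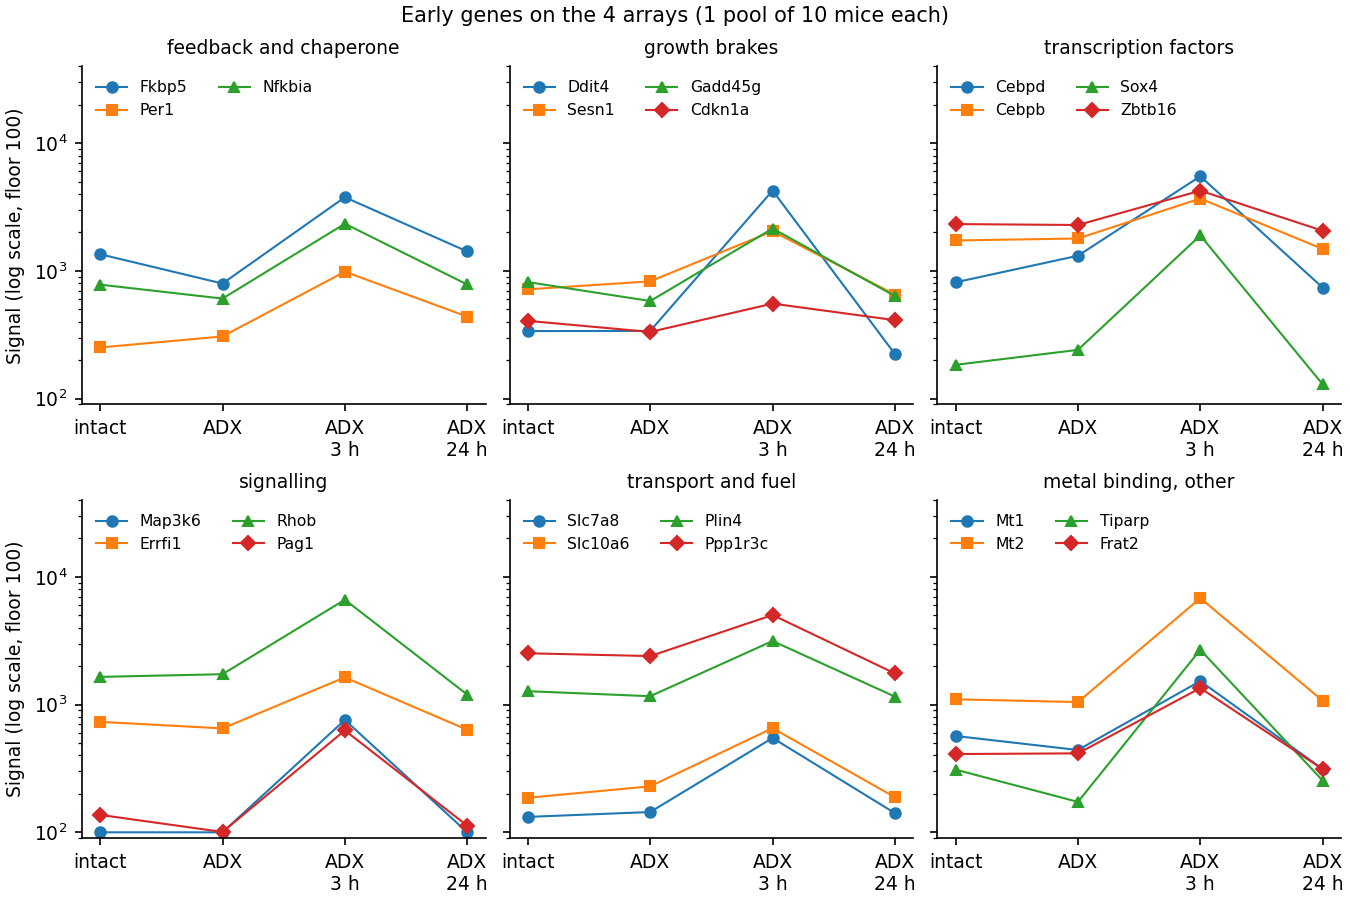
Signals of 23 genes on the 4 arrays, on a log scale with values below 100 drawn at 100; each line is a gene and each point is 1 array of 10 pooled mice. All the genes drawn are highest on the 3 h array, and most return at 24 h to near the level of the adrenalectomized array.

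The largest fold measured on both arrays belonged to Tiparp, a poly(ADP-ribose) polymerase best known as a target of the aryl hydrocarbon receptor. Its signals were 309.6, 173, 2688 and 254, a difference of 15.5-fold. Only the 3 h array was high. The other members of the aryl hydrocarbon receptor list did not share this: of 5 compared, Tiparp alone was past 2-fold, Nqo1, a quinone reductase, had a log2 ratio of 0.09, and Cyp1a1, Cyp1a2 and Cyp1b1 were below the floor on both arrays.

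Brakes on growth and the cell cycle followed. Ddit4 (REDD1), which restrains the growth-promoting kinase complex mTORC1, read 338, 339, 4250.3 and 223 and was 12.6-fold higher. Sesn1, a sestrin that also restrains mTORC1, read 716, 828, 2043 and 652 and was 2.47-fold higher. The stress-inducible growth arrest genes Gadd45g and Gadd45b were 3.70-fold and 2.38-fold higher, with signals of 816, 580.3, 2146 and 635 for Gadd45g and 297, 248, 589 and 355 for Gadd45b. For Ddit4, Sesn1 and Gadd45g the 3 h array stood clear of all others, whereas the intact and 24 h signals of Gadd45b lay closer to its 3 h value. The second probe set of Gadd45b was 1.87-fold higher. Cdkn1a, the cyclin-dependent kinase inhibitor p21, was 1.67-fold higher on its brightest probe set, at 406, 332, 554 and 411, but had a log2 ratio of 1.55 as the mean of its sets. Mstn (myostatin), a secreted inhibitor of muscle growth, was 1.48-fold higher at 2347, 1986, 2938 and 2469. Of the 19 growth brakes compared 4 were at least 2-fold higher and none lower, against 1.86% and 1.17% of all genes, with a median log2 ratio of 0.10 that turned negative under ribosomal protein scaling. Eif4ebp1, the repressor of cap-dependent translation, had a log2 ratio of 0.20, and Tsc1 and Tsc2, which form the complex through which REDD1 acts, had -0.11 and 0.03.

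Feedback on the hormone and on inflammation was represented by Fkbp5 and Nfkbia. Fkbp5, a co-chaperone that lowers the receptor's affinity for hormone, read 1349, 796, 3771 and 1418 and was 4.74-fold higher than without injection. Its adrenalectomized signal was the lowest of the 4. Nfkbia, the inhibitor that holds NF-kB in the cytoplasm, read 779.8, 607, 2339.7 and 782 and was 3.86-fold higher, and its second probe set was 3.12-fold higher. No other of the 20 NF-kB and inflammation genes compared was past 2-fold, and Tnf, Il1b, Il6 and Ptgs2 were below the floor on both arrays. Nor were the receptor or its other partners past 2-fold: Nr3c1, the glucocorticoid receptor, read 275, 311, 197 and 260.2 with a log2 ratio of -0.66, and the chaperone gene Hsp90aa1 had -0.18. Tyk2, a Janus kinase that serves interferon and interleukin receptors, went the other way. It read 356, 355, 84.9 and 261, at least 3.55-fold lower, with only the 3 h signal below the floor.

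Transcription factors of the C/EBP and SOX families were among the higher genes. Cebpd read 813, 1314, 5503 and 739.5, 4.19-fold higher, and Cebpb read 1730.0, 1793, 3682 and 1483, 2.05-fold higher; the latter was under 2-fold with ribosomal protein scaling. Both factors bind the same DNA element and are known to be induced in muscle by the hormone. Sox4, an HMG-box factor, read 184, 241, 1895 and 129, 7.88-fold higher, and its second probe set was 5.21-fold higher. Sox15 was dim, with 246, 155, 335 and 281, and was under 2-fold against the intact array. Of the 21 C/EBP, KLF and SOX genes compared these 4 were the only ones at least 2-fold higher, none was at least 2-fold lower, against 1.86% and 1.17% of all genes, and the median log2 ratio was 0.24. Klf9, a Krüppel-like factor commonly induced by glucocorticoids, had a log2 ratio of -0.03 on a probe set that may also read other transcripts. Zbtb16, a zinc finger repressor and frequent glucocorticoid target, read 2325, 2286, 4245 and 2061, which was 1.86-fold higher on a suffixed set, with a log2 ratio of 0.13 without such sets.

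Of signalling genes the greatest bound fell on Map3k6, a kinase at the head of stress-activated MAP kinase cascades. It was below the floor on all arrays but the 3 h array, at 57.3, 49.3, 758 and 53.8, which makes it at least 7.58-fold higher. Errfi1, an inhibitor of the epidermal growth factor receptor, read 733, 651, 1634 and 635, 2.51-fold higher, and its second probe set was similarly high at 1339.96 against 670.03. The other 22 MAP kinase genes compared were within 2-fold. Among them was Dusp1, a phosphatase that inactivates MAP kinases and a classical glucocorticoid target, with 2789.9, 2654, 3243 and 3044 and a log2 ratio of 0.29. Immediate early genes were mixed. Ccn2 (connective tissue growth factor), Zfp36 (a protein that destabilises cytokine messages) and Nr4a1 (an orphan nuclear receptor) were 2.45-fold, 2.23-fold and 2.03-fold higher. The last 2 were under 2-fold with ribosomal protein scaling, and Nr4a1 also against the intact array. Fos, Egr1 and Junb had log2 ratios of 0.19, -0.05 and 0.31.

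Metallothioneins, small proteins that bind zinc and copper, were higher. They made up all 3 genes at least 2-fold higher among the 14 metal genes compared, of which none was at least 2-fold lower, against 1.86% and 1.17% of all genes. Mt2 read 1101, 1047, 6819 and 1072 and was 6.52-fold higher. Mt1 read 568, 441, 1529 and 313 and was 3.47-fold higher. On both probe sets only the 3 h array was high. Mt4, a form of stratified epithelia, was above the floor at 3 h alone, with 14.5, 25.7, 391 and 26.0 and a bound of at least 3.91-fold that was under 2-fold with a floor of 200, and Mt3 had a log2 ratio of 0.71. No metal transporter of the list passed 2-fold. Mtf1, the metal-sensing factor that drives metallothionein genes, had 0.28, and Hmox1, another gene of metal and oxidant stress, had 0.18.

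Single genes of amino acid transport and fuel use were higher. Slc7a8, which carries large neutral amino acids, read 132, 144, 548 and 141, 3.80-fold higher, and Slc1a4, a carrier of alanine, serine and cysteine, was at least 2.48-fold higher at 45.6, 62.0, 248 and 93.5. Slc1a4 was under 2-fold with a floor of 200. The other 19 of 21 amino acid genes compared stayed within 2-fold, where 1.86% of all genes were higher and 1.17% lower by as much. Among the 19 was Glul (glutamine synthetase) with a log2 ratio of -0.03, or 0.62 without suffixed sets. Ppp1r3c, a subunit that directs protein phosphatase 1 to glycogen, read 2523, 2399, 5029 and 1754, 2.10-fold higher, and Ppara, a nuclear receptor of fatty acid oxidation, read 426, 367, 841 and 367, 2.29-fold higher. Ppp1r3c and Ppara were each under 2-fold with ribosomal protein scaling and against the intact array. Ucp3, a mitochondrial uncoupling protein, read 969, 1041, 1728 and 709.9, and Pdk4, the kinase that shuts off pyruvate dehydrogenase, read 6455, 7443, 9322 and 2425. Both were thus highest at 3 h and lowest at 24 h, at 1.66-fold and 1.25-fold over the adrenalectomized array. Ppargc1a, a coactivator of mitochondrial genes, had a log2 ratio of -0.90, with signals of 157, 187, 78.4 and 125.

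Circadian clock genes differed in both directions. Per1, a repressor of the clock with a known response to glucocorticoids, read 251, 306, 986 and 438, 3.22-fold higher. Nr1d1 (REV-ERB alpha) and Bhlhe40, both also repressors within the clock, read 2396, 1981, 958 and 2670.2 and 1383, 1359, 641 and 1636, 2.07-fold and 2.12-fold lower. The 3 h array was the highest of the 4 for Per1 and the lowest for Nr1d1 and Bhlhe40. Of 16 clock genes compared only these 3 were past 2-fold, where 1.86% of all genes were higher and 1.17% lower by as much. Per2 had a log2 ratio of 0.55, Dbp -0.70, Arntl 0.11 and Clock -0.03. The time of day of each dissection is not given, and its part was not tested.

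Several genes outside the lists so far described were as high, and of those below all but Rhob, Pag1, Spsb1 and Bcl2l1 were chosen for mention after their values were seen. Rhob, a small GTPase of the cytoskeleton, read 1648, 1730.1, 6626 and 1198 and was 3.83-fold higher. Pag1, a membrane adaptor that recruits a kinase inhibiting Src family members, read 137, 101, 628 and 113 and was 6.24-fold higher. Both were well above every other array. Plin4, a coat protein of lipid droplets, read 1274, 1164, 3148 and 1155, and Ell2, a factor of transcription elongation, read 1588, 1209.7, 3026 and 1359, giving 2.71-fold and 2.50-fold. Frat2, which binds the kinase GSK-3, read 410.2, 415, 1347 and 312, 3.25-fold higher. Second probe sets were only 1.51-fold higher for Frat2 and 1.81-fold higher for Ell2. Slc25a25, a mitochondrial carrier of ATP and magnesium, read 987, 733, 1615 and 806, 2.20-fold higher. Spsb1, an adaptor of a ubiquitin ligase, was 2.87-fold higher at 116, 138, 396 and 146, with a second probe set 2.61-fold higher. With a floor of 200 Spsb1 was under 2-fold. Bcl2l1, whose main product protects cells from apoptosis, read 544, 571, 1502 and 661, 2.63-fold higher, but its other probe set was below the floor on both arrays, and it was under 2-fold as the mean of its sets. Gpcpd1, an enzyme of glycerophosphocholine breakdown, differed from these. It read 2295, 1191, 2627 and 2692, so that the adrenalectomized array was the one that stood apart.

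A few more genes highest on the 3 h array were chosen for mention after their values were seen. Ackr3, an atypical receptor that clears the chemokine CXCL12, read 335, 371, 1296 and 320.1, 3.49-fold higher. Slc10a6, a carrier of sulphated steroids, read 186, 229, 654 and 188, 2.86-fold higher. The volume-regulated anion channel subunit Lrrc8a read 461, 531, 1097 and 494, and Dock9, an activator of the GTPase CDC42, read 868, 771, 1585 and 572. Both had the 3 h array alone at the high end, each 2.06-fold over the adrenalectomized array. Ackr3, Slc10a6 and Lrrc8a were at least 2-fold above every other array, and Dock9 was not.

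The other 22 members of the glucocorticoid-induced list were under 2-fold on their brightest probe set, but Cdkn1a and Lcn2 passed it with another choice of probe sets. Foxo3, a transcription factor of muscle atrophy, read 541, 524, 874 and 551, 1.67-fold higher, and Sgk1, a kinase related to AKT, read 4508, 4396, 6803 and 4064, 1.55-fold higher. In both, the 3 h array was the highest by a margin under 2-fold. Rgs2, a regulator of G protein signalling, had a log2 ratio of 0.64, Ampd3 (AMP deaminase) 0.55 and Anxa1 (annexin A1) 0.49. Tsc22d3 (GILZ), one of the hormone's best known targets, read 177, 256, 155 and 232 on its probe set, 1.65-fold lower. Pik3r1, a regulatory subunit of phosphoinositide 3-kinase, had a log2 ratio of -0.54 and Txnip, a thioredoxin inhibitor, -0.29. Lcn2, a secreted iron-binding protein, had -0.12 on its brightest set, 0.56 as the mean of its sets and 1.23 without suffixed sets, so its direction depends on the probe set. Pck1, Angptl4, Cdkn1c, Tgm2, Pnpla2 and Lpin1 lay between -0.32 and 0.10, and Tat, a liver enzyme, was below the floor.

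Genes of protein breakdown that could be compared mostly lay within 1.5-fold. None of the 28 proteasome subunits compared was past 1.5-fold, where 5.07% of all genes were higher and 4.75% lower by as much. The subunits had log2 ratios from -0.28 for Psma5 to 0.23 for Psmb6 and a median of 0.01. Of the 32 atrophy, autophagy and lysosome genes listed, 24 were on the array with 1 symbol, so the others were not measured here. None of the 24 was past 2-fold, where 1.86% of all genes were higher and 1.17% lower by as much. Foxo3 and Capn2 (a calpain protease, log2 ratio 0.65) were the ones past 1.5-fold. The cathepsin genes Ctsl, Ctsb and Ctsd had log2 ratios of -0.12, -0.09 and -0.09, and Sqstm1, an autophagy receptor, had -0.10. In oxidative phosphorylation 0 of 32 genes were past 1.5-fold, and the median was 0.03. No test underlies these counts, and the signs of the medians of the proteasome and oxidative phosphorylation lists turned with ribosomal protein scaling. In insulin, IGF and mTOR signalling none of 23 genes was past 2-fold. Igf1, the main local growth factor of muscle, had a log2 ratio of -0.39, Irs1, the insulin receptor substrate, -0.61, and Igfbp7, a binding protein, -0.82. The ribosomal protein, heat shock, cholesterol synthesis and polyamine lists likewise had no gene past 2-fold, nor had the 18 fast fibre genes. At the shares of all genes, lists of these sizes would hold few genes past 2-fold, so these counts set none apart.

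**Figure D5:**
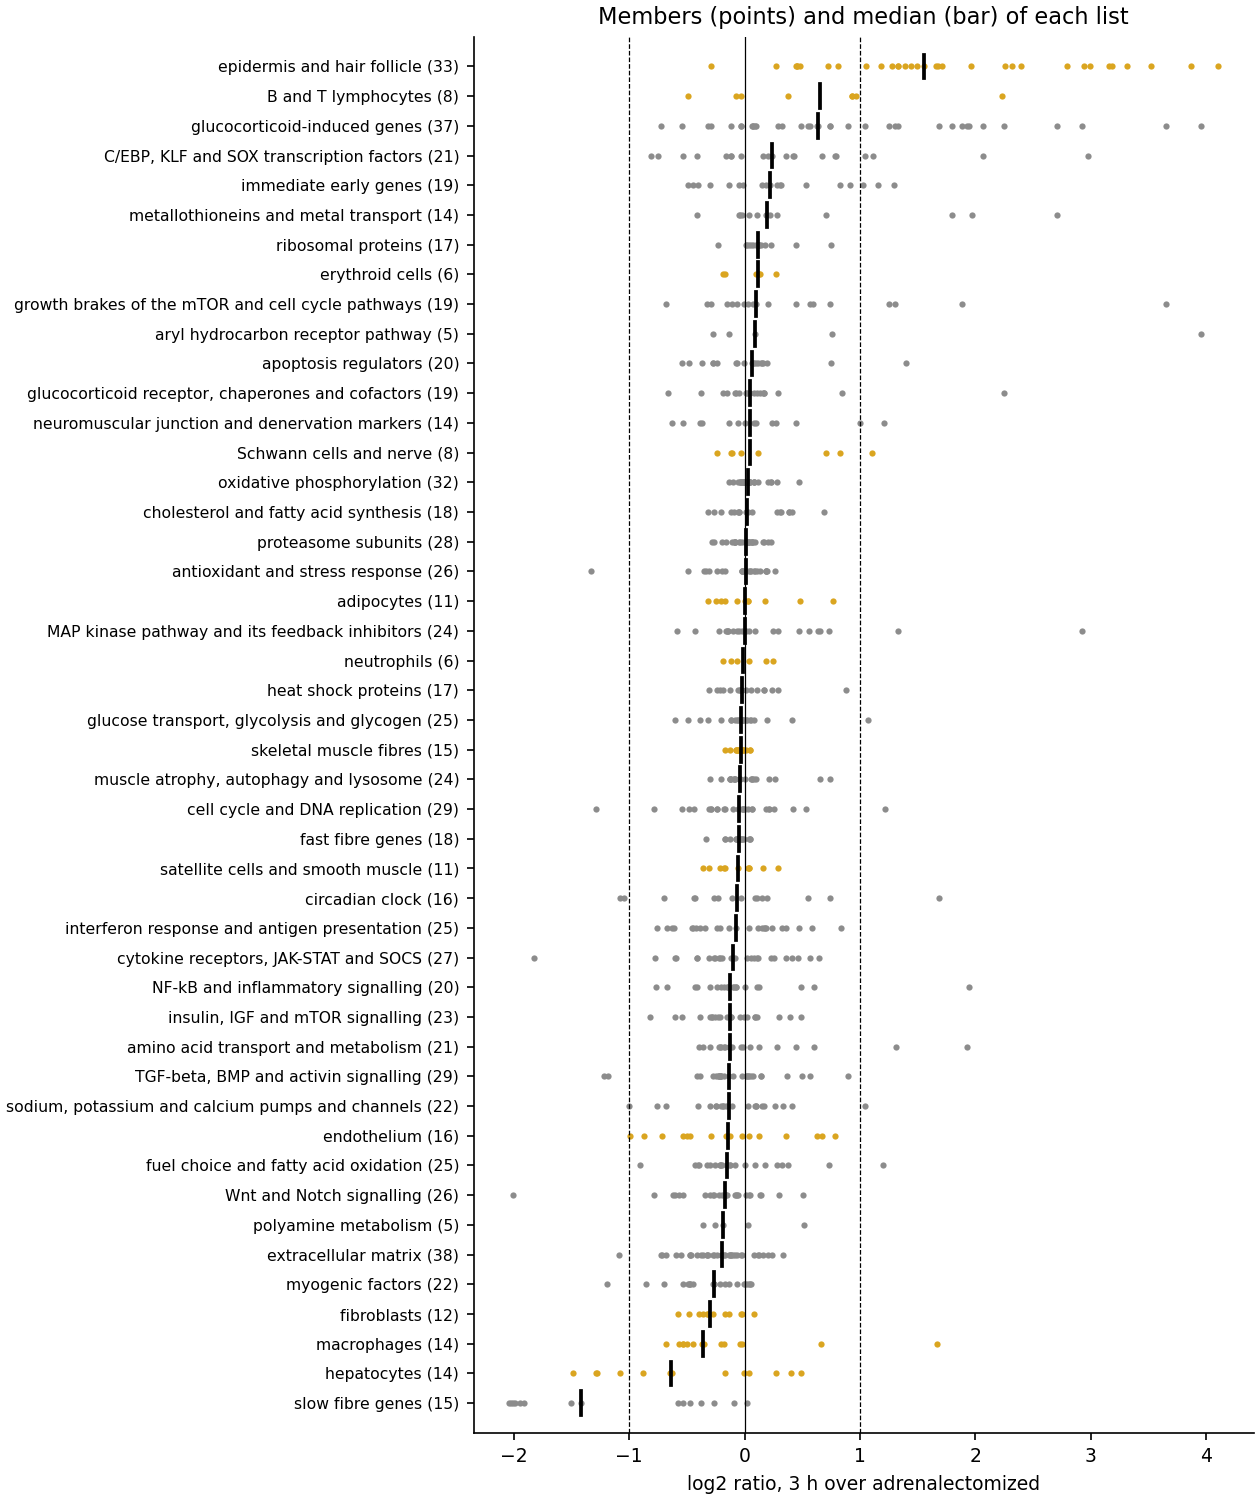
Log2 ratio of 3 h over adrenalectomized for every compared member of 46 lists, ordered by median (black bar); grey points are gene lists, yellow points are cell type marker lists, dashed lines mark 2-fold and brackets give the number of members compared. The epidermis and hair follicle list has the highest median (1.55), the slow fibre list the lowest (-1.41), and most other medians lie near 0.

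The remaining signalling and stress lists held single genes past 2-fold, where 1.86% of all genes were higher and 1.17% lower by as much. Of 27 cytokine receptor and JAK-STAT genes Tyk2 was at least 2-fold lower and none higher, and of 26 antioxidant and stress genes only Ddit3 was past 2-fold. Among the 29 cell cycle genes Cdk1, the mitotic kinase, was 2.32-fold higher at 51.8, 111, 257 and 22.7, a dim gene that was under 2-fold with a floor of 200, and Ccne1 was lower. Among 22 pumps and channels Kcna5, a voltage-gated potassium channel, was 2.06-fold higher at 223, 277, 571 and 196, and Kcnj8, a subunit of the ATP-sensitive potassium channel of vessels, was 2.01-fold lower at 388, 441, 219.6 and 354. Kcna5 was under 2-fold with ribosomal protein scaling and Kcnj8 with median or quantile scaling. Of 25 interferon and antigen presentation genes none was past 2-fold. At 1.5-fold 1 was higher and 4 were lower, against 5.07% and 4.75% of all genes. Iigp1 and Gbp2, which encode GTPases of the interferon response, had log2 ratios of -0.76 and -0.68, while Isg15, a ubiquitin-like protein, had 0.84.

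The genes lower at 3 h than on all 3 other arrays were few. All 14 are named here, some after their values were seen: Tyk2, Tmem129, Lpar1, Gng3, Pde4b, Tnfaip2, Ddit3, Ccne1, St8sia4, Myod1, Otulinl, Bhlhe40, Cxxc5 and Nr1d1. Pde4b, a phosphodiesterase that degrades cyclic AMP, read 600.2, 759, 297 and 597, 2.56-fold lower. Myod1, a master factor of muscle differentiation, read 1141, 1008, 440.1 and 947, 2.29-fold lower. For Pde4b and Myod1 the intact and 24 h signals were near each other and far above the 3 h signal. Ddit3 (CHOP), a factor of the unfolded protein response, read 247, 298, 118 and 310.0, 2.52-fold lower, and Ccne1 (cyclin E1), which drives entry into DNA replication, read 271, 272, 111 and 257, 2.45-fold lower. With a floor of 200 Ddit3, Ccne1, Tyk2 and Lpar1 were under 2-fold. Tmem129 was reversed to a log2 ratio of 0.20 once suffixed probe sets were left out. Tnfaip2, a gene induced by tumour necrosis factor, read 529, 449, 176 and 356, 2.55-fold lower, and Lpar1, a receptor of lysophosphatidic acid, read 244, 317, 111 and 255, 2.87-fold lower.

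Myogenic factors as a list had a median log2 ratio of -0.27 over 22 genes, with none past 2-fold other than Myod1. Six4, a homeobox factor, had -0.85, Tead4 -0.70, Myf6 -0.53 and Myog -0.48, while Mef2c, a partner of the MYOD family, had 0.06. Of the growth factor pathways, TGF-beta signalling had 2 of 29 genes at least 2-fold lower and none higher, against 1.17% and 1.86% of all genes. Smad3, the pathway's signal-carrying factor, read 319.8, 493, 212 and 205, and Tgfb1, a ligand, read 78.9, 227, 91.8 and 69.2. For both, the adrenalectomized array was the highest of the 4, Smad3 was under 2-fold against the intact array, and Tgfb1 was under 2-fold with a floor of 200. Lef1, a factor of Wnt signalling, was also highest on the adrenalectomized array, at 185, 457, 113 and 117, and its second probe set had a log2 ratio of 0.10. Of 38 extracellular matrix genes only Timp1, an inhibitor of matrix proteases, was at least 2-fold lower and none higher, against 1.17% and 1.86% of all genes. Timp1 read 643, 565, 266 and 413, 2.13-fold lower. Its other probe set was below the floor on both arrays, and it was under 2-fold as the mean of its sets. The median log2 ratio of the matrix list was -0.20, which became -0.03 against the intact array. Fibroblast markers had a median of -0.30, which became -0.05 against the intact array, and summed to 52083, 56560.5, 47878 and 41523. Their part in the matrix values was not tested.

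Other low genes were tied to no list, and Cavin2 and Dab2 are named after their values were seen. Zbtb17 (MIZ-1), a zinc finger partner of MYC, had the lowest log2 ratio of the genes measured on both arrays, and read 379, 561, 134 and 139, 4.18-fold lower and low on both injected arrays. Chad (chondroadherin), a matrix protein of cartilage and tendon, read 1312, 1419, 621 and 797, 2.29-fold lower. Cavin2, a coat protein of caveolae, read 952, 1439, 671 and 877, and Dab2, an endocytic adaptor, read 522, 729, 267 and 679.8, 2.14-fold and 2.73-fold lower. For Cavin2 and Dab2 the adrenalectomized signal was the highest of the 4. The second probe set of Dab2 was only 1.43-fold lower. Tbc1d10a read 1031, 1853, 824 and 1208 on a probe set made under relaxed rules. Its log2 ratio turned to 0.19 as the mean of its probe sets and to 1.54 without suffixed sets, so it has no settled direction.

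Slow fibre genes were lower as a group. Of 15 compared, 8 were at least 2-fold lower and none higher, against 1.17% and 1.86% of all genes, with a median log2 ratio of -1.41. They encode the contractile and calcium-handling proteins of type I fibres. Myh7, the slow myosin heavy chain, read 8238, 9419.7, 2342 and 2325, 4.02-fold lower. Tnnt1, the slow troponin T, read 9315, 11148, 2711 and 2279.6, 4.11-fold lower, and its second probe set was 2.98-fold lower. For Myh7 and Tnnt1 both injected arrays were low and both uninjected arrays high. The slow troponin genes Tnni1 and Tnnc1 were 3.98-fold and 3.76-fold lower. Atp2a2, the calcium pump of slow and cardiac muscle, read 3971, 4545, 1119 and 1045, and the slow myosin light chains Myl2 and Myl3 were 2.83-fold and 2.66-fold lower. Tpm3, a tropomyosin, was 3.85-fold lower on its brightest probe set and had a log2 ratio of -0.97 as the mean of its sets. Mb (myoglobin), which also marks oxidative fast fibres, had -0.53, Csrp3 -0.48, Casq2 -0.10 and Ldhb 0.02.

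The fast counterparts were level. Myh4, the fastest myosin heavy chain, read 33475, 34919, 33149 and 34187, with a log2 ratio of -0.08, and Tnnt3, the fast troponin T, read 31442, 31871, 32844 and 36007, with 0.04. The highest deposited signals of the 4 arrays were 35320, 36363, 35938 and 37846. Whether signals as near to these as those of Myh4 and Tnnt3 still follow the amount of RNA was not tested. Across 18 fast fibre genes the log2 ratios ran from -0.34 for Tpm1 to 0.05 for Cacna1s. Mouse gastrocnemius is a mostly fast muscle that lies against the slow soleus. The share of slow muscle in each dissection was not recorded in the labels, and its part in the slow fibre values was not tested.

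Epidermis and hair follicle markers were higher on the 3 h array as a body. Of 44 on the array 33 could be compared, 25 of them were at least 2-fold higher and none lower, against 1.86% and 1.17% of all genes, and the median log2 ratio was 1.55. The remaining 11, among them the basal keratins Krt5 and Krt14, were below the floor on both arrays. All 33 compared reached the floor on the 3 h array, but only 20 reached it on the adrenalectomized array. Those compared through the 3 h array alone could only come out higher, so the count and median are partly set by this filter. Dsp (desmoplakin), which anchors keratin filaments at cell junctions, read 58.5, 67.4, 1719.9 and 272, at least 17.2-fold higher. Krt10, a keratin of the upper epidermis, read 227, 175, 2549 and 531, 14.6-fold higher. Both were also higher on the 24 h array than on the uninjected arrays, though less than at 3 h. Krt71, Krt27 and Krt25, keratins of the inner root sheath of the hair, read 172, 202, 1614 and 460.4 for Krt71 and 19.9, 67.5, 996 and 276 for Krt27, and Krt25 was at least 9.09-fold higher. Flg (filaggrin), a protein of the cornified layer, was at least 5.25-fold higher, and S100a3, a calcium-binding protein of the hair cuticle, 6.94-fold. Genes of these cells outside the list were high on the same array, such as Krt77 at 2.96, 20.9, 958 and 176 and Anxa8 at 97.2, 138, 590.4 and 182. By symbol alone, a set made after the values were seen, 18 of 32 keratin and keratin-associated genes were at least 2-fold higher and 1, Krt36, lower.

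Some of the 115 higher genes are thus genes of skin and hair, and Mt4, Sox15, Sfn, Perp and Ly6d are among those expressed there. Skin also responds to glucocorticoids, so membership of a target list and expression in skin are not exclusive. The part of skin in the values of Fkbp5, Ddit4, Mt2 or other widely expressed genes was not tested.

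Hepatocyte markers were lower. Of 14 compared, 4 were at least 2-fold lower and none higher, against 1.17% and 1.86% of all genes, with a median of -0.64. Alb (albumin) read 956, 686, 282 and 218, 2.43-fold lower, and Serpina1e, an alpha-1-antitrypsin, read 874, 658, 235 and 196, 2.80-fold lower. These signals were highest on the intact and lowest on the 24 h array. Not all members shared this, since Ttr (transthyretin) had -0.01 and Hp (haptoglobin) 0.49, and Apoa1, Apob and Fgb were below the floor on both arrays.

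Of blood and stromal cells, the 8 lymphocyte markers compared had a median log2 ratio of 0.65, which became -0.06 against the intact array. Igkv6-23, an immunoglobulin light chain segment, read 411, 69.7, 468 and 1332, and Cd79a, a part of the B cell receptor, read 262, 129.6, 246 and 528. In both the adrenalectomized array was the lowest of the 4. Cd3e, Cd8a and Cd22 were below the floor on both arrays. Macrophage markers had a median of -0.36 over 14 genes, or -0.16 against the intact array, with Tyrobp at -0.68 and Csf1r at -0.54. Lgals3 (galectin 3), which epithelia also make, was 3.17-fold higher but under 2-fold with a floor of 200. Endothelial markers summed to 9106, 10894, 10960.1 and 10735, with Kdr, the main receptor of vascular endothelial growth factor, at -0.99 and Flt1, a related receptor, at 0.67. Adipocyte, erythroid, neutrophil and smooth muscle lists had medians of 0.01, 0.11, -0.02 and -0.06 and no gene past 2-fold, the first 2 medians turning negative under ribosomal protein scaling and that of neutrophils positive under median scaling. Of neuromuscular junction genes Chrng, the fetal subunit of the acetylcholine receptor, was at least 2.30-fold higher but at or above the floor on the intact array too, at 194, 64.6, 230.5 and 84.8. It was under 2-fold against that array.

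For some genes past 2-fold the adrenalectomized array also differed from the intact array. For 9 of the 115 the adrenalectomized array was itself at least 2-fold below the intact array, and for 8 of the 72 lower genes at least 2-fold above it. Both sets were picked by their ratio to the adrenalectomized array, which by itself favours an extreme signal on that array. The share among all genes compared is not given here, so no conclusion is drawn from these counts. Tex2 read 382, 112, 295 and 346 and Dbnl read 331, 121, 319 and 306, examples chosen after their values were seen. In these the intact, 3 h and 24 h signals lay together and the adrenalectomized signal stood alone.

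Genes past 2-fold were more frequent among dim genes. Of 2175 genes with a mean signal over both arrays under 300, 4.32% were past 2-fold, against 2.36% of 2458 genes between 300 and 1000 and 2.28% of 1535 genes at 1000 or more. Among the brightest genes 22 were higher and 13 lower. These 22 included Mt2, Rhob, Cebpd, Ddit4, Fkbp5, Cebpb, Plin4, Nr4a1, Ell2 and Gpcpd1, and the 13 included the 8 slow fibre genes, Nr1d1, Bhlhe40, Chad, Cavin2 and Tbc1d10a.

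Promoter windows of RefSeq (assembly GRCm38.p6) were searched for short motifs on both strands, from 250 bases before to 50 bases after each annotated start. Of the genes at least 2-fold higher 98 had 113 windows, and of those lower 60 had 85. The motif AGAACA, a single arm of the palindrome that the glucocorticoid receptor prefers, occurred in 10.6% of windows of higher genes and 17 of 85 windows of lower genes, against 13.0% of windows of all compared genes and 19.0% of all 32851 windows. Its inverted repeat with 3 bases between the arms occurred in 0 windows of higher and lower genes and in 3 of all windows. The metal response element core (TGCGCNC or TGCACNC) occurred in 27.4%, 40.0% and 34.6% of windows of higher, lower and all compared genes. The cyclic AMP response element TGACGTCA occurred in 3.54%, 1.18% and 2.73%, and the E-box CACGTG in 9.73%, 5.88% and 10.1%. The TATA box TATAAA occurred in 29.2%, 11.8% and 8.64%, against 13.6% of all windows. Of all windows 25.7% held the metal core, 1.79% the cyclic AMP element and 7.15% the E-box. Split further, the TATA box was in 63.0% of windows of higher epidermis markers and keratin genes and in 18.6% of windows of the other higher genes. Matches of different motifs may overlap. A match describes letters in a short window and is neither a binding site nor a cause.

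The 4 stretches below are the 250 bases before an annotated start, 5′ to 3′ on the gene's strand, with matches in capitals. All 4 belong to genes higher at 3 h and hold a match, so they are examples and do not show how frequent matches are. The first annotated start of Errfi1 held no match and is not shown.
Mt2: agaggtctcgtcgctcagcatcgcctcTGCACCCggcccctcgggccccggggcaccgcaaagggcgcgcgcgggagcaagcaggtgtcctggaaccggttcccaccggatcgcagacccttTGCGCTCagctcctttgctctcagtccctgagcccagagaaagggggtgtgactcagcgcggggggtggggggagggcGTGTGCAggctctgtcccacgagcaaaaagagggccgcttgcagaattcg
Errfi1: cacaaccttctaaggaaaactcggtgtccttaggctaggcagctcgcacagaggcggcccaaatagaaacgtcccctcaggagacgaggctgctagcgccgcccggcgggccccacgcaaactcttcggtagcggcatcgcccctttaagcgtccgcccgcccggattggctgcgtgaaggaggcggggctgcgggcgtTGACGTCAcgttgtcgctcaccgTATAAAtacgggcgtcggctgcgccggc
Slc10a6: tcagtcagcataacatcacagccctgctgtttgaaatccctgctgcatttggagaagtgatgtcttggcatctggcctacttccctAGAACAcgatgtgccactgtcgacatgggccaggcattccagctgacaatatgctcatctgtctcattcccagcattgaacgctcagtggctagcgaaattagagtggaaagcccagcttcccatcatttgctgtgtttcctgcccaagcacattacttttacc
Krt10: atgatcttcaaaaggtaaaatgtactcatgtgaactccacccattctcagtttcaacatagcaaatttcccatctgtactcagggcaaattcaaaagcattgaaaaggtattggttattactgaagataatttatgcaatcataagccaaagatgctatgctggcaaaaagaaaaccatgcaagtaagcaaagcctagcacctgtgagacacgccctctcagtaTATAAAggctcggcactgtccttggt
In Mt2 (chr8:94172368-94172617, plus strand) the capitals mark metal response cores that begin 223, 128 and 50 bases before the start, and another match lies after the start. In the second annotated start of Errfi1 (chr4:150854820-150855069, plus strand) they mark a cyclic AMP element at 51 and a TATA box at 28 bases before the start. In Slc10a6 (chr5:103629404-103629653, minus strand) they mark the receptor's AGAACA at 164 bases before the start. In Krt10 (chr11:99389365-99389614, minus strand) they mark a TATA box at 26 bases before the start, and AGAACA occurs on the opposite strand 37 bases after it.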

How the data were processed

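Total RNA of gastrocnemius muscle pooled from 10 mice per group was hybridized to 1 MG-U74Av2 array per group, and the authors computed a linear intensity signal per probe set with the software MAS 5.0, per the labels. The deposited columns had a trimmed mean near 500 (2% left out at each end), and 66 of 12488 probe sets were controls, 20 of them without a value at 3 h. The settings files deposited with each array were used only for the fluidics module. Here each array was scaled to a trimmed mean of 500 over the 12422 other probe sets, signals below 100 were set to 100, and log2 ratios of 3 h over adrenalectomized were taken. A gene was read from the probe set brightest on average over 4 arrays. Of 10833 probe sets with 1 symbol in the platform's annotation, 10817 matched the RefSeq gene table (GRCm38.p6, used for names) and 0 symbols changed; 1045 genes were read from suffixed probe sets, which may also detect other transcripts. A gene was counted at 2-fold; with 1 array per group no test was possible, and the number of arrays limits the precision. Sets of simulated signals were used to check the code. Genes named were list members and markers past 2-fold, the largest ratios and bounds, up to 4 genes per list, and the glucocorticoid-induced list; other genes named were chosen after their values were seen. The genes compared, the 34 gene lists, the 12 marker lists and the tests were chosen with earlier results of these data known. Alternatives changed the floor, scaling, probe set rule, baseline, lists and fold. Python 3.11.15, numpy 2.4.6 and pandas 2.3.3 were used.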

Additional observations from a re-analysis of the deposited data

Results flagged for a closer look

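Probe sets without a single gene symbol lay outside the report's comparison and held signals past 2-fold. Of 831 such probe sets that could be compared, 18 were at least 2-fold higher at 3 h than on the adrenalectomized array and 10 at least 2-fold lower. These counts are close to the shares among the genes compared, of which 1.86% were higher and 1.17% lower by as much. The highest fold was a bound of at least 7.27-fold, and the next was 7.14-fold, where only the 3 h array was high at 1554 against 218 without injection. The lowest was 2.94-fold lower. Their genes were not named here. With 1 array per group, no group could be searched for a sample far from the others.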

How the results depend on the processing

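No paired analysis was possible because each group has 1 array, and for the same reason no replicate could be left out. The counts of genes at least 2-fold higher and lower, 115 and 72 as reported, became 214 and 157 with a floor of 50, 68 and 34 with a floor of 200, 74 and 113 with ribosomal protein scaling, and 313 and 293 at 1.5-fold. The 14 genes at least 2-fold below all 3 other arrays became 32, 6 and 9 with a floor of 50, a floor of 200 and ribosomal protein scaling. Tbc1d10a (log2 ratio -1.17) reversed to 0.19 as the mean of all probe sets and 1.54 without suffixed probe sets, and Tmem129 (-1.54) reversed to 0.20 without suffixed sets. The cause was not tested beyond the change of probe sets or floor itself. Of 97 named genes past 2-fold, 95 kept their sign and 49 stayed past 2-fold under every alternative that gave a value, and 23 of 46 lists had a median of another sign under some alternative. Genes below the floor on both arrays, and the lack of a second pool, limit what can be read.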
